A study of Homo sapiens with 8 samples.

Results

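Cells treated for 24 hours with 80 or 100 µM lenvatinib were compared with cells given DMSO, the drug's solvent. The cells were MHCC-97H, an established human hepatocellular carcinoma line, grown in DMEM with fetal bovine serum. Of the 8 RNA-seq libraries of the series, 6 entered the comparison: 4 DMSO libraries (DMSO 1 to DMSO 4), 1 library at 80 µM and 1 library at 100 µM, chosen by their treatment labels. The libraries at 40 and 60 µM were left out. The labels do not say whether the libraries came from separate cultures, so the p-values rest on the spread of these libraries, which could be technical. Of 20263 genes in the table, 11914 averaged 1 or more CPM (counts scaled to the library's depth) over the 6 libraries and were tested. They held 99.92% of the counts.

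Lenvatinib inhibits the receptor kinases VEGFR1, VEGFR2 and VEGFR3, FGFR1 to FGFR4, PDGFRA, KIT and RET, and is used against hepatocellular carcinoma. In tumour cells the FGF receptors signal through RAS, RAF, MEK and ERK, and ERK keeps up its own feedback genes such as the DUSP phosphatases, the Sprouty proteins and the ETV transcription factors. Cells under chemical stress have other programmes: NRF2 switches on detoxifying and antioxidant enzymes, and ATF4 switches on amino acid synthesis and transport.

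With 80 and 100 µM lenvatinib, genes of both stress programmes were higher: 25 of 30 tested NRF2 targets and 20 of 34 ATF4 targets rose, against 9.67% of all tested genes, and so did 10 of 17 genes of MHC class I presentation. Of 25 genes that report ERK activity 14 fell, against 11% of all tested genes. Genes of ribosome biogenesis (15 of 27), cytosolic chaperones (14 of 24) and of the epithelial and mesenchymal state (14 of 26) also fell, as did HNF4A, a transcription factor of hepatocytes. The FGF receptor genes were not called. With 1 library left out the lowest counts were 15 NRF2 targets, 6 ATF4 targets and 6 MHC class I genes higher, and 7 ERK, 3 ribosome biogenesis, 4 chaperone and 10 epithelial or mesenchymal genes lower. These counts come from a test with a term for each library's trend along the GC content of genes. Without that term no gene passed.

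The libraries held 32306908, 30635814, 31466850 and 34240835 counts (DMSO 1 to 4), 37384578 (80 µM) and 34747706 (100 µM), with reads for 13590 to 14340 genes. At these depths a gene without a read could still have a level of up to 3 counts, or 0.0802 to 0.0979 CPM. That bound covers counting error only. The marker genes did not look like those of a differentiated hepatocyte: ALB, APOA1, APOB, TTR and TF had no read in any of the 6 libraries, nor did AFP. The epithelial keratins KRT8 and KRT18 were abundant, while EPCAM had 125 reads and the epithelial cadherin CDH1 225 reads over the 6 libraries. The leukocyte genes PTPRC, CD3E and LYZ and the fibroblast collagen COL1A2 had no read. The summed fibroblast markers were at 84.9 to 94.3 CPM in DMSO, 71.1 CPM at 80 µM and 79.3 CPM at 100 µM. Among them COL1A1 was at 26.8 to 32.4 CPM in DMSO against 37.6 and 36.2 CPM, above the DMSO range, and PDGFRB at 32.1 to 46.8 CPM against 20.6 and 24.9 CPM, below it.

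The main difference among the libraries followed GC content. The first principal component of their log2 levels held 72.51% of the variance, and its absolute Pearson r with the libraries' GC slopes was 0.9964 over the 6 libraries, a description of these libraries. A GC slope says by how much a library departs from the average of all 6, in log2 units, for each 10 points of GC percentage. It was 0.70 in DMSO 1, -0.09 in DMSO 2, -0.58 in DMSO 3 and 0.32 in DMSO 4. It was -0.17 at 80 µM and -0.19 at 100 µM, inside the DMSO range and next to DMSO 2. The test took each library's slope as a covariate (the GC-adjusted fit). Its effect was fitted gene by gene, so a gene's own GC content did not set its correction.

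**Figure D1:**
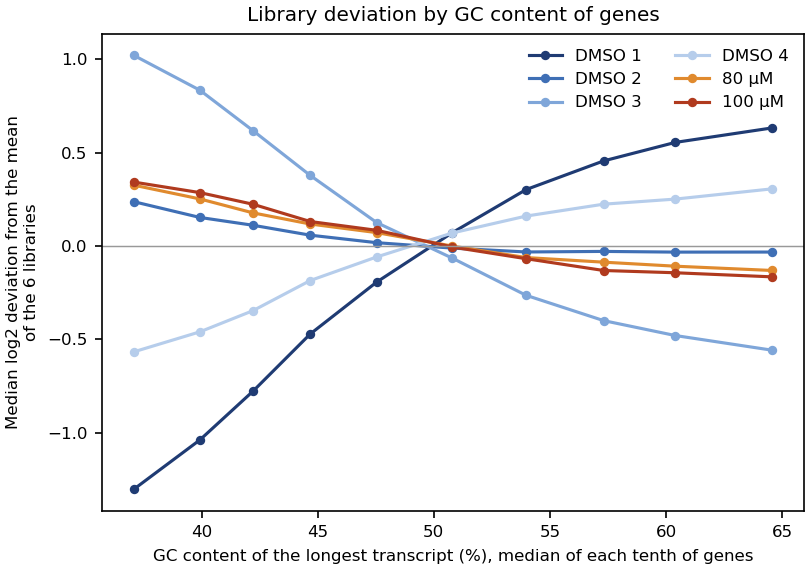
Median log2 departure of each library from the average of all 6 (vertical axis) in 10 bins of genes ordered by the GC content of the longest transcript (horizontal axis, %); blue lines are DMSO libraries, orange is 80 µM and red is 100 µM. The DMSO libraries fan out on both sides, and the 2 lenvatinib libraries run together with DMSO 2.

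With the covariate, 2463 genes (20.7%) passed a Benjamini-Hochberg adjusted p of 0.05 in edgeR's quasi-likelihood test: 1152 were higher with lenvatinib (9.67%) and 1311 lower (11%). A change of at least 2-fold was met by 185 of the higher genes (1.55% of those tested) and 247 of the lower ones (2.07%). The median absolute log2 fold change of the called genes was 0.53, with a median standard error (SE) of 0.11. Before any adjustment for GC, both lenvatinib libraries lay above all 4 DMSO libraries in 1322 genes (11.1%) and below all of them in 1235 genes (10.4%). Of the called genes, 662 higher and 763 lower ones were among these. The remaining called genes overlapped DMSO in their levels. The calls of all these genes, overlapping or not, rest on the covariate. Without the covariate no gene was called (0%): 915 genes had an unadjusted p under 0.05, against 4221 with it, and the lowest adjusted p was 0.305. The direction of the called genes was the same in that fit for 2391 of 2463.

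Calls were counted again without each library. They fell to 620 without the 80 µM library, 793 without DMSO 3 and 1255 without the 100 µM library, and were 1911 to 2393 without each of the other DMSO libraries. DMSO 3 was the library with the lowest GC slope. Scaling by library totals alone shifted the split between directions to 1598 higher and 788 lower, 67% higher against 46.8% with TMM scaling. With DESeq2's size factors 39.7% of the called genes were higher. Levels below are TMM-scaled CPM, in the order DMSO 1 to 4, and fold changes are log2 values ± SE from the GC-adjusted fit with adjusted p-values from edgeR.

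**Figure D2:**
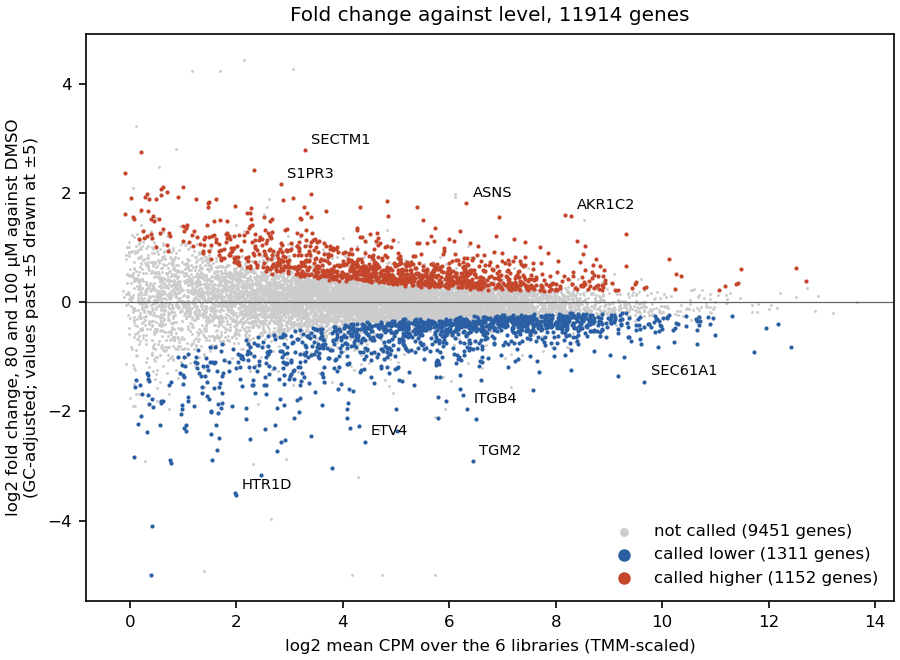
GC-adjusted log2 fold change of 80 and 100 µM lenvatinib against DMSO (vertical axis; values past ±5 are drawn at ±5) against the log2 mean CPM over the 6 libraries (horizontal axis), 1 point a gene; red points are the 1152 genes called higher and blue points the 1311 called lower. Called genes lie on both sides of 0, and the genes whose symbols are drawn lie toward the edges of the cloud.

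The genes with the largest increases came from several families. SECTM1 (chr17:82321024-82334074), a membrane and secreted protein that binds CD7, was at 4.63, 3.46, 2.61 and 3.87 CPM in DMSO against 24.2 and 20.0 CPM at 80 and 100 µM (2.80 ± 0.15, adjusted p = 0.000187). Both lenvatinib libraries stood well clear of the DMSO range, and lying outside it was part of the rule that chose these genes. HS6ST3 (chr13:96090839-96839562), a heparan sulfate sulfotransferase, was at 1.19, 1.20, 3.09 and 2.0 CPM in DMSO against 12.4 and 10.2 CPM with lenvatinib (2.42 ± 0.31, adjusted p = 0.00322). S1PR3 (chr9:88991447-89005010), a receptor for sphingosine 1-phosphate, was at 2.01, 3.31, 4.14 and 2.74 CPM and 16.4 and 14.3 CPM (2.17 ± 0.16, adjusted p = 0.000547). In each of the 3 genes the 80 µM library was the higher of the 2. PSMB9 (chr6:32844136-32859585), a catalytic subunit of the immunoproteasome, was at 9.88, 6.45, 2.53 and 7.58 CPM in DMSO against 18.5 and 18.3 CPM with lenvatinib (1.99 ± 0.20, adjusted p = 0.00147). MMP28 (chr17:35756249-35795707), a secreted metalloproteinase, rose by 1.91 ± 0.15 and KCNIP3, a calcium-binding partner of potassium channels, by 1.76 ± 0.20. ADM2, a peptide hormone of the calcitonin family, was at 4.63, 5.35, 2.45 and 4.24 CPM and 16.6 and 10.6 CPM (1.88 ± 0.31, adjusted p = 0.00899); its adjusted p was above 0.05 without DMSO 3 or the 80 µM library, and between 0.005745 and 0.05935 over the 6 leave-outs. ALOX15, a lipoxygenase, was at 1.39, 1.04, 1.77 and 1.74 CPM and 4.18 and 6.57 CPM (1.82 ± 0.32, adjusted p = 0.00938); here the 100 µM library was the higher, and the adjusted p was above 0.05 without DMSO 3 or the 100 µM library, and between 0.0163 and 0.06685 over the 6 leave-outs.

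One more gene met the rule for the highest fold changes and is uncertain. RPL36A-HNRNPH2 is a readthrough of 2 neighbouring genes and shares exons with both. Its level was 2.17, 5.73, 34.3 and 2.97 CPM in DMSO against 36 and 38.9 CPM with lenvatinib, so that DMSO 3 alone came near the lenvatinib level. Its log2 fold change was 1.75 ± 0.35, adjusted p = 0.0286, and the adjusted p was above 0.05 without DMSO 4, the 80 µM library or the 100 µM library, and between 0.004305 and 0.136 over the 6 leave-outs.

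The largest decreases included a serotonin receptor, liver genes and a transglutaminase. HTR1D (chr1:23191895-23194729), a serotonin receptor, was at 5.86, 6.71, 4.22 and 6.11 CPM in DMSO against 0.60 and 0.312 CPM with lenvatinib (-3.54 ± 0.35, adjusted p = 0.00142). TGM2 (chr20:38127387-38166578), the tissue transglutaminase that crosslinks proteins, was at 169, 108, 72.8 and 145 CPM and 11.5 and 14.9 CPM (-2.90 ± 0.14, adjusted p = 0.000187). It was the most abundant of the 12 genes with the largest decreases. C2orf54 (chr2:240886048-240896889) was at 24.1, 21.0, 12.4 and 22 CPM and 1.90 and 2.23 CPM (-3.05 ± 0.19, adjusted p = 0.000389). WFDC1, a secreted protein with a protease inhibitor fold, was at 64.9, 37.1, 27.2 and 50.3 CPM and 5.74 and 8.15 CPM (-2.35 ± 0.17, adjusted p = 0.000518). In all of these genes the 2 groups did not overlap, which the rule that chose them required. The ion channel subunit CALHM3 was at 10.0, 9.16, 4.73 and 7.58 CPM and 0.336 and 1.17 CPM (-3.17 ± 0.54, adjusted p = 0.0147), and its adjusted p was above 0.05 without DMSO 3, and between 0.00555 and 0.0645 over the 6 leave-outs. The small heat shock protein CRYAB was at 16.5, 10.0, 4.36 and 9.45 CPM and 0.696 and 1.74 CPM (-2.57 ± 0.44, adjusted p = 0.01385), and its adjusted p was above 0.05 without DMSO 3, and between 0.00786 and 0.0671 over the 6 leave-outs. CRYBG2 was at 14.9, 12.2, 5.84 and 9.25 CPM and 0.840 and 2.18 CPM (-2.53 ± 0.49, adjusted p = 0.0234), with an adjusted p above 0.05 without DMSO 1 or DMSO 3, and between 0.0118 and 0.08985 over the 6 leave-outs. MAP1S, a microtubule-associated protein, had the smallest adjusted p of all genes and was picked out after its values were seen. Its level was 208, 97.1, 61.2 and 139.6 CPM in DMSO against 21.0 and 19.5 CPM with lenvatinib (-2.14 ± 0.08, adjusted p = 9.98e-05). With the GC trend taken out, by moving each library along the gene's own fitted slope to a GC slope of 0, its 4 DMSO libraries lay at 107, 105, 106 and 103 CPM and the lenvatinib libraries at 24.6 and 23.4 CPM. Such adjusted levels, here and below, use the covariate and design of the test. All 1152 genes called higher and all 1311 called lower lay outside the DMSO range in them, so they add no support to a call.

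**Figure D3:**
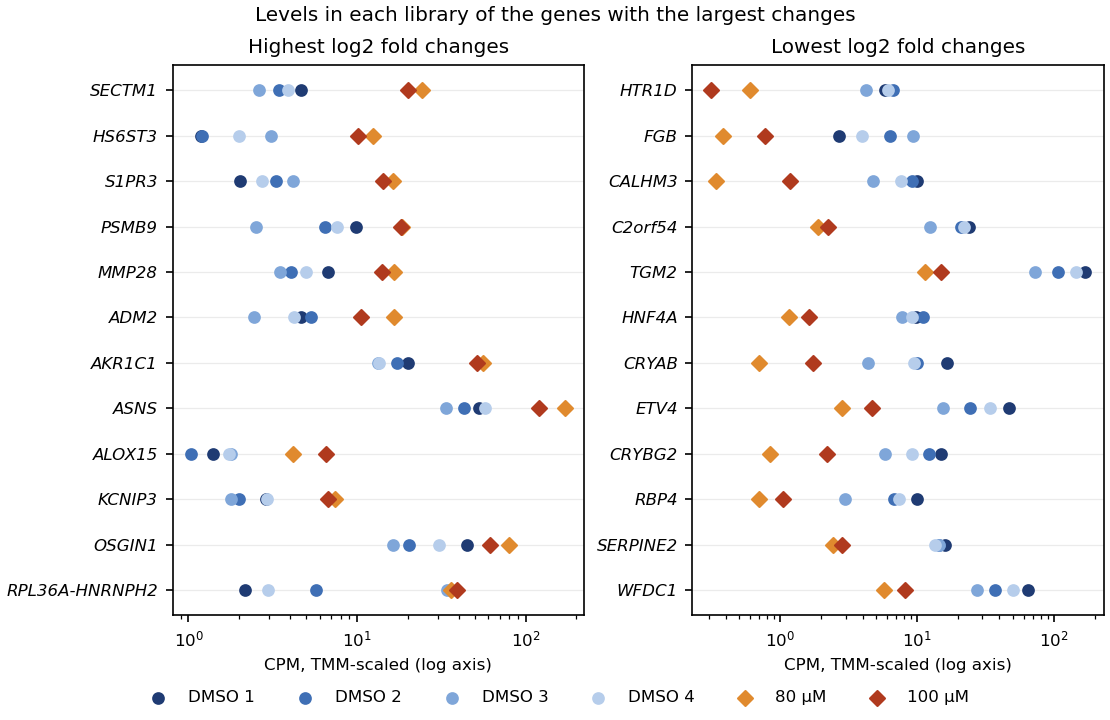
TMM-scaled CPM on a log axis of the 12 genes with the highest (left) and the 12 with the lowest (right) log2 fold changes under the rule for named genes; blue circles are the 4 DMSO libraries, orange and red diamonds the 80 and 100 µM libraries. The diamonds lie outside the DMSO circles in every row, by the rule that chose the genes, and RPL36A-HNRNPH2 is the row in which DMSO 3 comes next to them.

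Genes of 26 lists were then read side by side. The lists hold pathways, organelles and cell states that bear on the drug and the tissue. The filter averages 4 DMSO and 2 lenvatinib libraries, so a gene nearly absent with lenvatinib can enter through DMSO alone. A gene seen only with lenvatinib needs a higher level to enter. The counts of called members stand against 9.67% higher and 11% lower over all tested genes. The median log2 fold change of a list stands against 0.00 over all tested genes. The share called rose with GC content. Among genes of 30.24 to 44.22% GC, 5.19% were called higher and 6.8% lower. At 44.22 to 54.53% GC the shares were 10.2% and 11.1%, and at 54.53 to 74.69% GC they were 13.7% and 15.1%. The median GC content of the lists ran from 44.27 to 56.66%, and the background was not matched to it. Each library without which a list's count of calls, or a median whose sign held, moved by over 1.5 times is named with the value without it. For a count that was 0 as reported, not every such library is named.

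**Figure D4:**
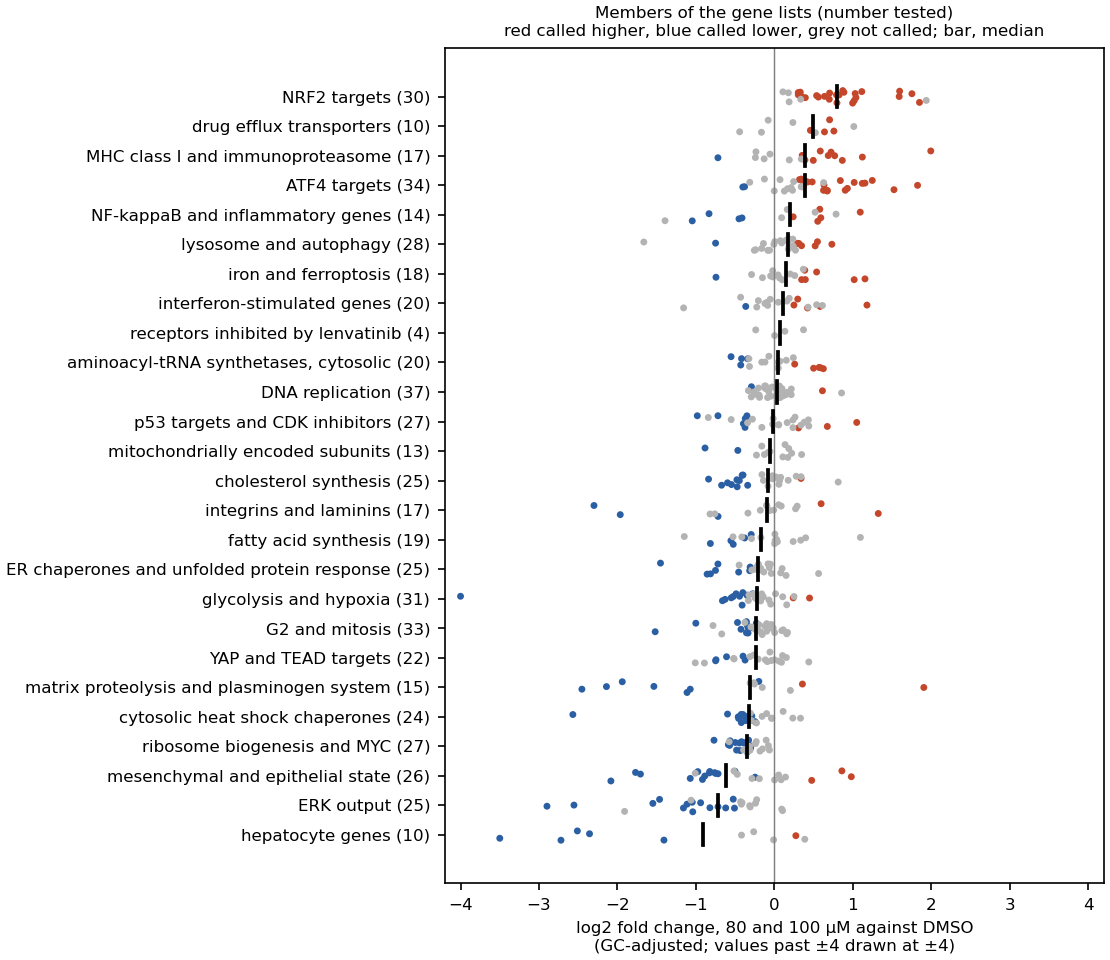
GC-adjusted log2 fold change (horizontal axis; values past ±4 are drawn at ±4) of the tested members of 26 gene lists, 1 point a gene, ordered by the list's median (black bar); red points were called higher, blue points called lower and grey points not called. The NRF2 targets lie wholly above 0, and the hepatocyte genes and the ERK output have the lowest medians.

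NRF2 is a transcription factor that KEAP1 keeps unstable until oxidants or electrophiles free it, and it is often active in liver tumours. Of 30 tested NRF2 targets 25 rose and none fell, all 30 had a positive fold change, and the median was 0.80 (0.65 without the covariate, 0.65 to 0.89 over the alternatives). Over the leave-outs, the number called higher was 15 without DMSO 3 or the 80 µM library. In 20 of the 30 both lenvatinib libraries lay above the DMSO range, against 11.1% of all tested genes. The steroid and carbonyl reductase AKR1C2 (chr10:4987400-5017955) was at 220.1, 189.6, 151 and 226 CPM in DMSO against 563 and 514 CPM at 80 and 100 µM (1.59 ± 0.08, adjusted p = 0.000187). Its neighbour AKR1C1 (chr10:4963253-4983283) was at 20.0, 17.2, 13.2 and 13.5 CPM and 56.1 and 51.2 CPM (1.85 ± 0.15, adjusted p = 0.000800). The AKR1C genes are close copies, and how reads that fit both were counted is not given in the sources used here, so their separate levels are uncertain. EPHX1 (chr1:225810092-225845563), the microsomal epoxide hydrolase, was at 323, 168, 95.4 and 253 CPM and 497 and 396 CPM (1.60 ± 0.10, adjusted p = 0.000518). OSGIN1 (chr16:83948282-83966332), an oxidative stress response gene, was at 44.6, 20.2, 16.3 and 30.7 CPM and 80.0 and 61.6 CPM (1.75 ± 0.13, adjusted p = 0.000624). SRXN1 (chr20:646615-653370), which repairs overoxidised peroxiredoxins, was at 136, 119.9, 122 and 121 CPM and 282 and 246 CPM (1.12 ± 0.08, adjusted p = 0.000536). None of these genes overlapped DMSO at either dose, and each was higher at 80 than at 100 µM.

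The other NRF2 targets that rose cover the known branches of the programme. They included the glutathione synthesis genes GCLC, GCLM and SLC7A11, the thioredoxin genes TXN and TXNRD1, the reductases GSR and NQO1, the pentose phosphate genes PGD, TALDO1 and TKT, and AKR1C3, UGDH, PIR, TRIM16, HMOX1, FTH1, FTL, ABCC2 and ABCC3. The tested members without a call were MAFG, ME1, PRDX1, SQSTM1 and CBR1. NR0B1 had no read and AKR1B10 had 93 reads over the 6 libraries. HMOX1, the haem oxygenase, was at 83.1, 60.2, 41.9 and 76.6 CPM in DMSO against 87.8 and 71.4 CPM with lenvatinib, inside the DMSO range at 100 µM (0.54 ± 0.11, adjusted p = 0.0150); its adjusted p was above 0.05 without DMSO 3 or the 80 µM library, and between 0.0204 and 0.139 over the 6 leave-outs.

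Other lists share members with the NRF2 targets. Of 10 drug efflux transporters 4 rose and none fell, with a median of 0.49. By library left out, the number called higher was 2 without DMSO 3 or the 80 µM library, and the median was 0.18 without DMSO 3. ABCC2, which exports conjugates into bile, was at 37.5, 62.8, 93.7 and 48.2 CPM and 109.9 and 105 CPM (0.64 ± 0.08, adjusted p = 0.00238), and ABCC3 was at 74.9, 54.6, 53.5 and 65.1 CPM and 97.5 and 88.8 CPM (0.70 ± 0.09, adjusted p = 0.00284). Both were above the DMSO range. ABCC5 rose by 0.46 ± 0.09, with an adjusted p above 0.05 without DMSO 3 or the 80 µM library, and between 0.0226 and 0.118 over the 6 leave-outs. ABCB6 rose by 0.76 ± 0.15, with an adjusted p above 0.05 without DMSO 2, DMSO 3, the 80 µM library or the 100 µM library, and between 0.005115 and 0.1735 over the 6 leave-outs. Of 18 genes of iron handling and ferroptosis 6 rose and 1 fell, with a median of 0.15. In the leave-outs the number called higher was 0 without the 80 µM library, 1 without DMSO 3 and 3 without DMSO 2. The one that fell was STEAP3, an endosomal iron reductase, at 114, 93.2, 83.0 and 102 CPM and 54.0 and 55.0 CPM (-0.74 ± 0.07, adjusted p = 0.001375). The ferritin chains FTH1 (0.40 ± 0.08, adjusted p = 0.0174) and FTL (0.35 ± 0.07, adjusted p = 0.0153) rose in the GC-adjusted fit while their levels overlapped DMSO. FTL was at 4285, 2236, 1393 and 3429 CPM in DMSO against 2673 and 2542 CPM with lenvatinib, and its fold change was -0.12 without the covariate. For FTH1 the adjusted p was above 0.05 without DMSO 3 or the 80 µM library, and between 0.0230 and 0.165 over the 6 leave-outs, and for FTL above 0.05 without DMSO 2, DMSO 3 or the 80 µM library, and between 0.0179 and 0.143 over the 6 leave-outs. Both have many near-identical pseudogenes, so their counts are uncertain.

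ATF4 is translated when the kinases of the integrated stress response phosphorylate eIF2α, and it turns on genes of amino acid synthesis, amino acid transport and tRNA charging. Of 34 tested ATF4 targets 20 rose and 2 fell, with a median of 0.39 (0.36 without the covariate, 0.34 to 0.48 over the alternatives). When 1 library was dropped, the number called higher was 6 without the 80 µM library and 7 without DMSO 3, and the number called lower was 0 without the 80 µM library or the 100 µM library and 1 without DMSO 1, DMSO 3 or DMSO 4. ATF4 itself (chr22:39519695-39522685) was at 189.7, 187, 171 and 173 CPM in DMSO against 359 and 306 CPM with lenvatinib (0.90 ± 0.08, adjusted p = 0.00123). ASNS (chr7:97852118-97872542), the asparagine synthetase, was at 52.9, 43.1, 33.5 and 57.1 CPM and 172 and 121 CPM (1.83 ± 0.17, adjusted p = 0.00220). PSAT1, of the serine synthesis pathway, was at 61.1, 92.2, 105 and 78.5 CPM and 196 and 156 CPM (0.93 ± 0.11, adjusted p = 0.00225). NUPR1, a chromatin protein of the stress response, was at 42.1, 38.7, 33.7 and 40.0 CPM and 84.4 and 75.8 CPM (1.12 ± 0.09, adjusted p = 0.000676). All 4 were above the DMSO range at both doses and higher at 80 than at 100 µM. Also called higher were PHGDH and SHMT2 of serine and glycine synthesis, ALDH1L2, CBS, CTH, CHAC1, PYCR1 and STC2, the transporters SLC7A11, SLC7A5, SLC3A2, SLC1A4 and SLC1A5, and XPOT, CEBPG and SESN2. The 2 that fell were ALDH18A1 and GDF15. The stress transcription factor DDIT3, also called CHOP, was not called: it was at 2.58, 8.37, 6.83 and 4.21 CPM in DMSO against 6.70 and 5.04 CPM with lenvatinib (-0.13 ± 0.30, adjusted p = 0.811), and the sign of its fold change differed between settings.

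The asparagine synthetase promoter carries the element through which ATF4 and its C/EBP partners are known to bind, and its sequence shows what was searched for. The 250 bases before the RefSeq start of ASNS on GRCh38.p14 (chr7:97872409-97872658, minus strand, 5′ to 3′) follow, with the match to TGATGNAA in capitals.
ASNS: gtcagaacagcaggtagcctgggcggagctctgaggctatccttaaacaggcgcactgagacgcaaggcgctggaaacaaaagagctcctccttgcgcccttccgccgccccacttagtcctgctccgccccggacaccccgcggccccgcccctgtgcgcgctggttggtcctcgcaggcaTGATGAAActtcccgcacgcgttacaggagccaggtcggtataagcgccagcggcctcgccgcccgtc
The match begins 68 bases before the start. Matches were counted on both strands of RefSeq promoters, from 250 bases before to 50 after the start, which 9308 of the 11914 tested genes had. TGATGNAA was in 5 of 28 promoters of ATF4 targets (17.9%), in 1.42% of all promoters, in 1.61% of those of genes called higher and in 1.07% of those of genes called lower. A match is a description of the letters and not of a bound factor.

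Genes of tRNA charging, some of which are known ATF4 targets, did not move together. Of 20 cytosolic aminoacyl-tRNA synthetases 5 rose (AARS, CARS, GARS, MARS and YARS) and 4 fell (FARSA, HARS, KARS and VARS), and the sign of the median, 0.05, differed between settings. With 1 library left out, the number called higher was 2 without the 80 µM library and 3 without DMSO 3, and the number called lower was 1 without the 80 µM library and 2 without DMSO 3. MARS, the methionyl enzyme, was at 183, 136, 104 and 150.1 CPM and 201 and 173 CPM (0.57 ± 0.08, adjusted p = 0.00414). FARSA, a subunit of the phenylalanyl enzyme, was at 519, 262, 159 and 375 CPM and 173 and 175 CPM (-0.43 ± 0.06, adjusted p = 0.00409). Both overlapped DMSO in their levels. With the GC trend taken out by the test's own covariate, FARSA was at 272, 283, 271 and 279 CPM in DMSO against 202 and 209 CPM with lenvatinib. AARS rose by 0.59 ± 0.09, with an adjusted p above 0.05 without DMSO 3, and between 0.00488 and 0.0558 over the 6 leave-outs, and VARS had -0.42 ± 0.06, with an adjusted p above 0.05 without the 80 µM library, and between 0.00939 and 0.0529 over the 6 leave-outs.

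Chaperones of the endoplasmic reticulum, which the unfolded protein response raises when that organelle is overloaded, went the other way. Of 25 genes of this list 8 fell and none rose, with a median of -0.21 (-0.34 to -0.12 over the alternatives). Over the leave-outs, the number called lower was 5 without the 80 µM library or the 100 µM library, and the median was -0.34 without the 80 µM library. SEC61A1 (chr3:128051641-128071682), the channel through which proteins enter the endoplasmic reticulum, was at 1339, 942, 747 and 1179.8 CPM in DMSO against 339.7 and 324 CPM with lenvatinib (-1.45 ± 0.06, adjusted p = 0.000160). HSPA5 (chr9:125234853-125241330), also known as BiP, the main chaperone of that compartment, was at 818, 1201, 1351 and 1044 CPM and 678 and 691 CPM (-0.81 ± 0.07, adjusted p = 0.000945). MANF was at 126, 99.7, 79.6 and 114 CPM and 48.8 and 55.1 CPM (-0.86 ± 0.09, adjusted p = 0.00147), and calreticulin, CALR, at 1576, 1378, 1109 and 1562 CPM and 767 and 805 CPM (-0.72 ± 0.07, adjusted p = 0.00151). In all 4 both doses lay below the DMSO range. The others called lower were HSP90B1, CRELD2, HYOU1 and SDF2L1.

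Cytosolic chaperones of the heat shock response were also lower. Of 24 members 14 fell and none rose, with a median of -0.32 (-0.38 to -0.21 over the alternatives). By library left out, the number called lower was 4 without the 80 µM library and 5 without DMSO 3 or the 100 µM library. HSPA8 (chr11:123057489-123063230), the constitutive HSP70, was at 2372, 2276, 2062 and 2495 CPM in DMSO against 1429.6 and 1511 CPM with lenvatinib (-0.60 ± 0.07, adjusted p = 0.00240). FKBP4, a co-chaperone of HSP90, was at 677, 442, 334 and 589 CPM and 316 and 317 CPM (-0.42 ± 0.06, adjusted p = 0.00480). Both lay below the DMSO range. HSP90AA1, the inducible HSP90, had DMSO levels in the reverse order of the GC slopes: it was at 208, 807, 1762 and 378 CPM in DMSO, with lenvatinib at 658 and 698 CPM in the middle of that range. With the GC trend taken out by the test's own covariate it was at 679.5, 698, 664 and 648 CPM in DMSO against 498 and 506 CPM with lenvatinib (-0.42 ± 0.06, adjusted p = 0.00480). STIP1 fell by 0.45 on the log2 scale (SE 0.08), with an adjusted p above 0.05 without the 80 µM library or the 100 µM library, and between 0.00708 and 0.0572 over the 6 leave-outs. The stress-inducible HSPA1A and HSPA1B, near-identical copies, were not called. The heat shock element GAANNTTC was in 8 of 21 promoters of this list (38.1%) and in 4.5% of all promoters.

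Genes of ribosome biogenesis, the making of rRNA and its assembly with proteins that MYC drives in growing cells, were lower. All 27 tested genes had a negative fold change, 15 fell and none rose, with a median of -0.35 (-0.28 without the covariate, -0.38 to -0.25 over the alternatives). In the leave-outs the number called lower was 3 without the 80 µM library, 6 without DMSO 3 and 9 without the 100 µM library. PES1 was at 234, 146, 137 and 185 CPM in DMSO against 101 and 105 CPM with lenvatinib (-0.57 ± 0.09, adjusted p = 0.00520), UTP4 at 149, 119, 105 and 135 CPM and 84.5 and 87.7 CPM (-0.44 ± 0.07, adjusted p = 0.00519), and FBL, which methylates rRNA, at 494, 272, 199.7 and 412 CPM and 169 and 192 CPM (-0.56 ± 0.09, adjusted p = 0.00569). In these 3 both lenvatinib libraries were below the DMSO range. Their adjusted p-values were, for PES1, above 0.05 without the 80 µM library, and between 0.00657 and 0.0533 over the 6 leave-outs, for UTP4, above 0.05 without the 80 µM library, and between 0.0113 and 0.0556 over the 6 leave-outs, and for FBL, above 0.05 without DMSO 3, and between 0.0107 and 0.0553 over the 6 leave-outs. BOP1, a partner of PES1, was at 621, 302, 185 and 427 CPM and 210.2 and 206 CPM (-0.38 ± 0.06, adjusted p = 0.00480), overlapping DMSO. MYC was not called.

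Among the receptors that lenvatinib inhibits, the VEGF receptor genes KDR, FLT1 and FLT4 and PDGFRA had no read in the 6 libraries, KIT had 6 reads and RET 4. The 4 FGF receptors were expressed, and none was called. FGFR3 was at 66.3, 58.4, 53.9 and 53.2 CPM in DMSO against 63.9 and 59.0 CPM with lenvatinib (0.14 ± 0.10, adjusted p = 0.3865), and FGFR4, the receptor for FGF19 in liver cells, at 106, 51.8, 36.3 and 67.1 CPM and 45.2 and 37.5 CPM (-0.24 ± 0.11, adjusted p = 0.169). FGFR1 was at 49.0, 32.1, 26.3 and 37.9 CPM and 33.0 and 29.5 CPM (0.00 ± 0.10, adjusted p = 0.982), with a sign that differed between settings, and FGFR2 was at 0.83 to 1.43 CPM in DMSO against 1.18 and 1.30 CPM with lenvatinib. EGFR, which lenvatinib is not known for inhibiting, was at 66.0, 143, 319 and 99.5 CPM and 205 and 208 CPM (0.18 ± 0.10, adjusted p = 0.220). For all 5 receptors both lenvatinib libraries lay within the DMSO range.

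Genes that report ERK activity were lower. Of 25 tested members 14 fell and none rose, with a median of -0.72 (-0.92 without the covariate, -0.92 to -0.51 over the alternatives). In 16 of the 25 both lenvatinib libraries lay below the DMSO range, against 10.4% of all tested genes. When 1 library was dropped, the number called lower was 7 without DMSO 3 or the 80 µM library. DUSP4, a nuclear phosphatase that switches ERK off, was at 5.16, 3.46, 2.72 and 5.28 CPM in DMSO against 0.480 and 0.441 CPM with lenvatinib (-2.90 ± 0.28, adjusted p = 0.00134). ETV4 (chr17:43527844-43579620), an ETS factor induced by FGF signalling, was at 46.6, 24.2, 15.5 and 33.9 CPM and 2.83 and 4.70 CPM (-2.55 ± 0.22, adjusted p = 0.00123). EPHA2 (chr1:16124337-16156087), a receptor kinase gene that ERK induces, was at 336, 235, 189 and 282 CPM and 138 and 137 CPM (-0.72 ± 0.06, adjusted p = 0.000686). PLAUR (chr19:43646095-43670547), the urokinase receptor, was at 27.5, 20.1, 17.2 and 20.9 CPM and 9.26 and 8.60 CPM (-1.11 ± 0.13, adjusted p = 0.00204). The groups did not overlap in any of the 4. The other members called lower were EGR1, FOSL1, SPRY2, SPRED2, ETV1, IER3, SPHK1, LIF, CCND1 and PHLDA2. ETV5, HMGA2, HBEGF, AREG, UPP1, PHLDA1, FOS, MYC, SPRED1, DUSP5 and DUSP7 were not called. DUSP6, an ERK phosphatase commonly used as a readout, was under the filter of 1 CPM: its reads numbered 2, 14, 16 and 18 over the DMSO libraries, 23 with 80 µM and 21 with 100 µM. In the fit with no filter on low counts it was not called (log2 fold change 0.31, adjusted p = 0.846).

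Hepatocyte identity genes were few in these cells. Of 36 on the list 10 passed the filter, so the list speaks only of the genes that the line still expresses. FGB and FGA were under 1 CPM in both lenvatinib libraries and passed through their DMSO levels. The split and the median of the list can therefore lean towards decreases. Of these 5 fell and 1, CPS1, rose, with a median of -0.91 (-1.29 to -0.33 over the alternatives). With 1 library left out, the number called higher was 0 without DMSO 3, the 80 µM library or the 100 µM library. HNF4A (chr20:44355700-44434596), a master transcription factor of hepatocytes, was at 9.88, 11, 7.69 and 9.25 CPM in DMSO against 1.15 and 1.61 CPM with lenvatinib (-2.72 ± 0.24, adjusted p = 0.00104). FGB (chr4:154562956-154571086), the fibrinogen beta chain, was at 2.66, 6.39, 9.39 and 3.97 CPM and 0.384 and 0.779 CPM (-3.50 ± 0.32, adjusted p = 0.00116). RBP4, the plasma carrier of retinol, was at 10.0, 6.74, 2.96 and 7.31 CPM and 0.696 and 1.04 CPM (-2.51 ± 0.30, adjusted p = 0.00232). FGA was at 1.64, 3.43, 2.77 and 3.37 CPM and 0.60 and 0.571 CPM (-2.36 ± 0.39, adjusted p = 0.00716), with an adjusted p above 0.05 without the 80 µM library, and between 0.00530 and 0.0609 over the 6 leave-outs. In all 4 both lenvatinib libraries were below the DMSO range. In bulk RNA, fewer cells that express such a gene and less of its RNA per cell cannot be told apart.

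Genes of adhesion, matrix and cell shape were lower on balance, on both the epithelial and the mesenchymal side. Of the 26 tested genes that mark a mesenchymal or epithelial state 14 fell and 3 rose, with a median of -0.62 (-0.75 to -0.51 over the alternatives). Over the leave-outs, the number called higher was 0 without the 80 µM library and 1 without DMSO 3. TGFBI (chr5:136028895-136063818), a matrix protein induced by TGF-beta, was at 125, 91.2, 77.2 and 112 CPM in DMSO against 25.4 and 29.7 CPM with lenvatinib (-1.71 ± 0.10, adjusted p = 0.000309). TGFB1 itself was at 523, 244, 125 and 375 CPM and 119 and 114 CPM (-0.83 ± 0.08, adjusted p = 0.00123), and the epithelial keratin KRT7 at 3000.4, 1614, 1039 and 2296 CPM and 837 and 906 CPM (-0.76 ± 0.07, adjusted p = 0.001195). Each was below the DMSO range at both doses. The mesenchymal genes FN1, CDH2 and TAGLN and the epithelial genes CDH1, KRT8, KRT18, DSP and JUP were called lower together with CTGF and ITGA5. The 3 called higher were SNAI2, TWIST1 and ACTA2. Beside these counts, the summed epithelial markers, nearly all KRT8 and KRT18, were at 5649 to 16270 CPM in DMSO, 4242 CPM at 80 µM and 4773 CPM at 100 µM; their part in the result was not tested.

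The plasminogen system regulates how cells digest matrix. Of 15 tested genes of matrix proteolysis 7 fell and 2 rose, with a median of -0.30. By library left out, the number called higher was 1 without DMSO 3, the 80 µM library or the 100 µM library. SERPINE2 (chr2:223975112-224039319), a protease inhibitor of the cell surface, was at 16.0, 14.6, 14.4 and 13.4 CPM in DMSO against 2.42 and 2.83 CPM with lenvatinib (-2.45 ± 0.16, adjusted p = 0.000467). The activators PLAU and PLAT, the urokinase receptor PLAUR, and the inhibitors TFPI2 and TIMP1 were also among those called lower. MMP28 and the inhibitor TIMP3 were called higher. MMP28 was at 6.76, 4.06, 3.5 and 5.01 CPM in DMSO against 16.6 and 14.1 CPM with lenvatinib, above the DMSO range. Of the matrix metalloproteinases MMP1, MMP2, MMP3, MMP7, MMP9, MMP10, MMP11, MMP13 and MMP14 none had more than 167 reads over the 6 libraries.

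Integrins and laminins changed gene by gene. Of 17 tested members 3 fell and 2 rose, with a median of -0.09 whose sign differed between settings. In the leave-outs the number called higher was 1 without DMSO 3 or the 80 µM library. ITGB4 (chr17:75721328-75757818), the integrin chain of hemidesmosomes, was at 163, 88.7, 66.1 and 124 CPM in DMSO against 20.3 and 23.9 CPM with lenvatinib (-1.96 ± 0.10, adjusted p = 0.000187). LAMA1 was at 19.5, 22.4, 29.7 and 22.7 CPM and 3.60 and 6.73 CPM (-2.30 ± 0.27, adjusted p = 0.003905), and ITGA5, of the fibronectin receptor, at 330.3, 206, 135 and 285 CPM and 118 and 109 CPM (-0.72 ± 0.08, adjusted p = 0.00192). These 3 lay below the DMSO range. LAMB2 was at 132, 91.1, 75.0 and 108 CPM and 146 and 121 CPM (0.60 ± 0.09, adjusted p = 0.00480), and the other gene that rose was LAMA3. Of 22 targets of YAP and TEAD, which read cell tension and density, 5 fell and none rose, with a median of -0.23. When 1 library was dropped, the number called lower was 2 without the 80 µM library and 3 without DMSO 3, and the median was -0.06 without DMSO 3. The growth factor CTGF was at 153, 126, 120.4 and 135 CPM and 70.6 and 80.3 CPM (-0.75 ± 0.08, adjusted p = 0.00200), and the receptor kinase AXL at 229, 148, 133 and 195 CPM and 91.5 and 91.3 CPM (-0.74 ± 0.08, adjusted p = 0.00147). Both were below the DMSO range. FJX1 had -0.61 ± 0.09, with an adjusted p above 0.05 without the 80 µM library, and between 0.0110 and 0.0572 over the 6 leave-outs, and CYR61 had -0.37 ± 0.08, with an adjusted p above 0.05 without DMSO 3 or the 80 µM library, and between 0.02185 and 0.121 over the 6 leave-outs.

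AP-1, a dimer of FOS and JUN proteins that ERK activates, binds TGANTCA. This element was in 5.53% of the promoters of genes called lower, in 4.02% of those called higher and in 4.22% of all. Among the genes that fell at least 2-fold, a group picked out after the values were seen, it was in 24 of 176 promoters (13.6%), and among those that rose at least 2-fold in 4.51%. Windows around the element upstream of 2 of the named genes follow, chosen after their values were seen, from RefSeq on GRCh38.p14. That of PLAUR is chr19:43670319-43670385 and that of CALHM3 is chr10:103479280-103479346, both on the minus strand, 5′ to 3′, with the element in capitals.
PLAUR: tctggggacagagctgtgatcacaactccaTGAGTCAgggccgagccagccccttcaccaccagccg
CALHM3: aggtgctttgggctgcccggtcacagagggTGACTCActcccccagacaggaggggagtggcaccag
The element begins 186 bases before the start of PLAUR and 76 bases before that of CALHM3. The ETS core CCGGAA was in 30.9% of all promoters, 29.4% of those of genes called lower and 23.2% of those of genes called higher, and in 14.2% and 14.3% of those that fell and rose at least 2-fold. The antioxidant response element TGACNNNGC, through which NRF2 acts, was in 6 of 23 promoters of NRF2 targets (26.1%), 10 of 28 promoters of ATF4 targets (35.7%), 15.4% of all promoters, 16.0% of those called higher and 15.1% of those called lower. It was in 11.3% of the promoters of genes that rose at least 2-fold and 17.0% of those that fell as much. No match in these windows says nothing of elements further away.

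Cell cycle genes showed small decreases in mitosis and little in DNA replication. Of 33 genes of G2 and mitosis 11 fell and none rose, with a median of -0.23 (-0.29 to -0.14 over the alternatives). With 1 library left out, the number called lower was 0 without DMSO 3, 1 without the 80 µM library, 2 without the 100 µM library and 7 without DMSO 2. PLK1, a mitotic kinase, was at 720.1, 392, 281 and 540.2 CPM in DMSO against 301 and 292 CPM with lenvatinib (-0.33 ± 0.06, adjusted p = 0.007675); its adjusted p was above 0.05 without DMSO 3 or the 80 µM library, and between 0.0153 and 0.0654 over the 6 leave-outs. CDC25B had -0.33 ± 0.07, with an adjusted p above 0.05 without DMSO 3, the 80 µM library or the 100 µM library, and between 0.0196 and 0.130 over the 6 leave-outs, and ANLN -0.47 ± 0.10, with an adjusted p above 0.05 without DMSO 3, the 80 µM library or the 100 µM library, and between 0.0156 and 0.153 over the 6 leave-outs. CENPE, a kinetochore motor, was at 0.246, 4.06, 26.4 and 0.735 CPM and 2.09 and 1.84 CPM (-1.52 ± 0.20, adjusted p = 0.00362), with DMSO 3 far above the others, and its adjusted p was above 0.05 without DMSO 3, and between 0.00689 and 0.0810 over the 6 leave-outs. All 4 overlapped DMSO in their levels, and their calls, like all others, rest on the covariate. MKI67, the proliferation marker, was at 24.7, 56.6, 188 and 41.1 CPM and 56.9 and 53.3 CPM and was not called (-0.67 ± 0.20, adjusted p = 0.0710).

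Of 37 DNA replication genes 2 fell, RRM2 and TK1, and 1 rose, E2F1. The sign of the median, 0.03, differed between settings. Over the leave-outs, the number called higher was 2 without the 100 µM library, and the number called lower was 0 without the 80 µM library or the 100 µM library and 1 without DMSO 2 or DMSO 3. RRM2, of ribonucleotide reductase, was at 123, 129.7, 127 and 135 CPM in DMSO against 106 and 103 CPM with lenvatinib (-0.30 ± 0.07, adjusted p = 0.0268); its adjusted p was above 0.05 without DMSO 2, DMSO 3, the 80 µM library or the 100 µM library, and between 0.0256 and 0.132 over the 6 leave-outs. TK1 had -0.29 ± 0.06, with an adjusted p above 0.05 without the 80 µM library or the 100 µM library, and between 0.0232 and 0.0917 over the 6 leave-outs. E2F1 was at 239, 159.9, 105 and 204 CPM and 227 and 209 CPM (0.61 ± 0.08, adjusted p = 0.00273), overlapping DMSO. With the GC trend taken out by the test's own covariate it was at 152, 169, 153 and 166 CPM and 253 and 237 CPM. MCM3 was at 305, 303, 319 and 292 CPM and 344 and 371 CPM and was not called (0.22 ± 0.06, adjusted p = 0.0502).

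Of 27 p53 targets and CDK inhibitors 6 fell and 3 rose, and the sign of the median, -0.01, differed between settings. By library left out, the number called higher was 1 without DMSO 3 and 5 without DMSO 2, and the number called lower was 0 without DMSO 3 or the 80 µM library and 2 without the 100 µM library. CDKN1A, the CDK inhibitor p21, was not called (-0.55 ± 0.78, adjusted p = 0.681). It was at 203, 52.3, 94.7 and 174 CPM in DMSO, 106 CPM at 80 µM and 32.3 CPM at 100 µM, so the 80 µM library lay inside the DMSO range and the 100 µM library below it. PMAIP1, which encodes the pro-apoptotic protein NOXA, was at 2.62, 5.45, 7.85 and 3.84 CPM and 11.7 and 12 CPM (1.05 ± 0.14, adjusted p = 0.00395), above the DMSO range. SESN2 rose by 0.68 ± 0.14, with an adjusted p above 0.05 without DMSO 3 or the 80 µM library, and between 0.0118 and 0.152 over the 6 leave-outs. CDKN2B had -0.98 ± 0.15, with an adjusted p above 0.05 without DMSO 3 or the 80 µM library, and between 0.00614 and 0.0583 over the 6 leave-outs, and PLK3 -0.72 ± 0.17, with an adjusted p above 0.05 without DMSO 3, the 80 µM library or the 100 µM library, and between 0.02975 and 0.134 over the 6 leave-outs.

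Genes of lipid synthesis were lower in part. Of 25 cholesterol synthesis genes 10 fell and 1, PMVK, rose, with a median of -0.08 that was 0.01 under scaling by library totals. In the leave-outs the number called higher was 0 without DMSO 3 or the 80 µM library and 2 without DMSO 2, the number called lower was 5 without the 80 µM library and 6 without DMSO 3 or the 100 µM library, and the median was -0.20 without DMSO 3 and -0.20 without the 80 µM library. HSD17B7 was at 39.0, 34.2, 27.0 and 35.1 CPM in DMSO against 18.0 and 17.0 CPM with lenvatinib (-0.84 ± 0.11, adjusted p = 0.00287). FDFT1, the squalene synthase, was at 229, 168, 125 and 217 CPM and 108 and 108 CPM (-0.55 ± 0.08, adjusted p = 0.00444). Both were below the DMSO range. DHCR7, the last step to cholesterol, was at 355, 197, 131 and 269 CPM and 135 and 125 CPM (-0.48 ± 0.06, adjusted p = 0.00302), just above DMSO 3 at 80 µM and below it at 100 µM. NSDHL had -0.45 ± 0.07, with an adjusted p above 0.05 without the 80 µM library, and between 0.01305 and 0.0643 over the 6 leave-outs. HMGCS1, an early enzyme of the pathway, was at 13.8, 38.7, 72.6 and 20.8 CPM and 31.6 and 21.7 CPM (-0.67 ± 0.17, adjusted p = 0.0358), overlapping DMSO, with an adjusted p above 0.05 without DMSO 1, DMSO 2, DMSO 3, DMSO 4 or the 100 µM library, and between 0.0179 and 0.190 over the 6 leave-outs. Of 19 fatty acid synthesis genes 5 fell and none rose, with a median of -0.17 that was 0.01 with the filter at 5 CPM. When 1 library was dropped, the number called lower was 1 without the 80 µM library, 2 without DMSO 3 or the 100 µM library and 3 without DMSO 4, and the median was -0.07 without DMSO 2 and -0.09 without DMSO 4. The number called higher was 1 without DMSO 1. FASN, the fatty acid synthase, was at 1532, 965, 788 and 1273 CPM and 708 and 625 CPM (-0.52 ± 0.07, adjusted p = 0.00392), below the DMSO range. ACLY had -0.38 ± 0.07, with an adjusted p above 0.05 without DMSO 3 or the 80 µM library, and between 0.0158 and 0.0771 over the 6 leave-outs, ACACA -0.29 ± 0.06, with an adjusted p above 0.05 without DMSO 3, the 80 µM library or the 100 µM library, and between 0.0292 and 0.1365 over the 6 leave-outs, and ACSL1 -0.81 ± 0.22, with an adjusted p above 0.05 without DMSO 2, DMSO 3, DMSO 4, the 80 µM library or the 100 µM library, and between 0.0478 and 0.163 over the 6 leave-outs.

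Glycolysis genes and hypoxia-driven genes were lower in part. Of 31 tested members 11 fell and 2 rose (VEGFA and PFKL), with a median of -0.23 (-0.45 to -0.14 over the alternatives). With 1 library left out, the number called higher was 0 without DMSO 3, DMSO 4, the 80 µM library or the 100 µM library and 1 without DMSO 2, the number called lower was 4 without the 80 µM library, 6 without the 100 µM library and 7 without DMSO 2, and the median was -0.38 without DMSO 3. The glucose transporter SLC2A1 was at 374, 263, 225 and 296 CPM in DMSO against 159 and 174 CPM with lenvatinib (-0.63 ± 0.07, adjusted p = 0.00231). Lactate dehydrogenase LDHA was at 1144, 1028, 876 and 1202 CPM and 663 and 695 CPM (-0.55 ± 0.08, adjusted p = 0.00430), PGAM1 at 1538, 1084, 771 and 1331 CPM and 693 and 721 CPM (-0.49 ± 0.07, adjusted p = 0.00405), and the hexokinase HK1 at 386, 249.6, 190.4 and 329.6 CPM and 184 and 179 CPM (-0.40 ± 0.06, adjusted p = 0.005155). In all 4 both lenvatinib libraries lay below the DMSO range. CA9, the hypoxia-induced carbonic anhydrase, had a mean of 1.96 CPM in DMSO and no read in either lenvatinib library, at least 25.2-fold lower when 3 counts per library are taken as the floor. With CA9 at that bound the median of the list was also -0.23.

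Genes of antigen presentation by MHC class I were higher on balance. Of 17 genes 10 rose and 1, CALR, fell, with a median of 0.39 (0.18 to 0.50 over the alternatives). Over the leave-outs, the number called higher was 6 without DMSO 3. PSMB9, named above, had the largest change of the list. HLA-B was at 56.3, 52.5, 39.2 and 56.2 CPM in DMSO against 95.7 and 109 CPM with lenvatinib (1.12 ± 0.11, adjusted p = 0.00130), and PSME1, a proteasome activator subunit, at 101, 67.2, 47.5 and 87.3 CPM and 105 and 107 CPM (0.77 ± 0.08, adjusted p = 0.00147). Both were above the DMSO range. HLA-C, TAP1, TAP2, TAPBP, ERAP1 and PSME2 were also among those called higher, and B2M, HLA-E, PSMB8, PSMB10, NLRC5 and PDIA3 were not called. HLA genes are similar to each other and differ between people, so their separate counts are uncertain.

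Interferon-stimulated genes share regulators with MHC class I. Of 20 tested members 5 rose and 1 fell, with a median of 0.11 that was -0.00 with the filter at 5 CPM. By library left out, the number called higher was 1 without DMSO 3 or the 80 µM library and 2 without the 100 µM library, the number called lower was 0 without DMSO 2 or the 80 µM library, and the median was 0.22 without DMSO 1, 0.06 without DMSO 4, 0.19 without the 80 µM library and 0.03 without the 100 µM library. IFI6 was at 13.4, 22.5, 18.3 and 14.2 CPM in DMSO against 39.5 and 44.1 CPM with lenvatinib (1.18 ± 0.17, adjusted p = 0.00513), above the DMSO range. IRF1 rose by 0.58 ± 0.13, with an adjusted p above 0.05 without DMSO 3 or the 80 µM library, and between 0.0291 and 0.183 over the 6 leave-outs, and BST2 by 0.25 ± 0.06, with an adjusted p above 0.05 without DMSO 3, the 80 µM library or the 100 µM library, and between 0.03465 and 0.138 over the 6 leave-outs. IFITM2 had -0.36 ± 0.09, with an adjusted p above 0.05 without DMSO 2, DMSO 3 or the 80 µM library, and between 0.0248 and 0.176 over the 6 leave-outs. The other genes that rose were OAS3 and PARP9, and ISG15 and IFIT1 were among those not called.

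Of 14 NF-kappaB and inflammatory genes 5 rose and 4 fell, with a median of 0.20. In the leave-outs the number called higher was 0 without the 80 µM library, 1 without DMSO 3 or the 100 µM library, 2 without DMSO 2 and 3 without DMSO 4, the number called lower was 2 without DMSO 2, DMSO 3 or the 80 µM library, and the median was 0.14 without DMSO 3. NFKBIA, the inhibitor that NF-kappaB induces, was at 28.9, 41.1, 28.3 and 40.4 CPM and 74.3 and 72.5 CPM (1.10 ± 0.20, adjusted p = 0.0173); its adjusted p was above 0.05 without the 80 µM library or the 100 µM library, and between 0.00418 and 0.106 over the 6 leave-outs. RELB rose by 0.59 ± 0.12, with an adjusted p above 0.05 without DMSO 3 or the 80 µM library, and between 0.0230 and 0.132 over the 6 leave-outs. The adhesion molecule ICAM1 was at 105, 68.1, 61.8 and 88.2 CPM and 37.8 and 41.4 CPM (-0.83 ± 0.09, adjusted p = 0.00204), and the early response gene IER3, which is also on the ERK list, at 29.2, 24.6, 20.7 and 29.1 CPM and 10.6 and 12.5 CPM (-1.05 ± 0.13, adjusted p = 0.00266). These last 2 lay below the DMSO range, so members moved in both directions.

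Lysosome and mitochondrial genes changed little. Of 28 lysosome and autophagy genes 6 rose and 1, MAP1LC3B, fell, with a median of 0.17. When 1 library was dropped, the number called higher was 0 without DMSO 3, 2 without the 80 µM library and 3 without the 100 µM library, the number called lower was 0 without DMSO 1, DMSO 2, DMSO 3, DMSO 4 or the 100 µM library, and the median was 0.10 without DMSO 3. The cathepsins CTSZ (312, 296, 259 and 259.7 CPM in DMSO against 404 and 397 CPM with lenvatinib, 0.55 ± 0.08, adjusted p = 0.00503) and CTSB (238, 193, 134 and 226 CPM and 245 and 248 CPM, 0.52 ± 0.09, adjusted p = 0.00679) lay above the DMSO range. The adjusted p of CTSZ was above 0.05 without DMSO 3, and between 0.00748 and 0.0548 over the 6 leave-outs, and that of CTSB was above 0.05 without DMSO 3, and between 0.00765 and 0.0565 over the 6 leave-outs. UVRAG rose by 0.73 ± 0.13, with an adjusted p above 0.05 without DMSO 3 or the 80 µM library, and between 0.01065 and 0.0874 over the 6 leave-outs, and GLA by 0.35 ± 0.08, with an adjusted p above 0.05 without DMSO 2, DMSO 3, the 80 µM library or the 100 µM library, and between 0.0208 and 0.184 over the 6 leave-outs. Of 13 mitochondrially encoded subunits 2 fell and none rose, with a median of -0.05 whose sign differed between settings. With 1 library left out, the number called lower was 1 without DMSO 1, DMSO 3, DMSO 4 or the 80 µM library. The number called higher was 1 without DMSO 4. MT-ND3, of complex I, was at 756, 402, 278 and 672 CPM and 203 and 222 CPM (-0.88 ± 0.10, adjusted p = 0.00270), below the DMSO range. MT-CO2 had -0.46 ± 0.12, with an adjusted p above 0.05 without DMSO 1, DMSO 3, DMSO 4 or the 80 µM library, and between 0.02745 and 0.244 over the 6 leave-outs. MT-ATP6 (0.35 ± 0.14, adjusted p = 0.149) and MT-ND4L (-0.23 ± 0.14, adjusted p = 0.303) were not called.

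The 80 and 100 µM libraries were close to each other. Their log2 values had a Pearson r of 0.9807 across genes, the highest of any pair of the 6 libraries (lowest 0.833), where genes are not independent replicates. With 1 library a dose there is no test of a difference between the doses. After the GC slope was taken out, 293 of 11914 genes differed by at least 2-fold between them, 143 higher at 100 µM and 150 higher at 80 µM. A call needs the 2 libraries to be alike, and such differences were seen in 2 of 1152 genes called higher and in 10 of 1311 called lower, all 10 of the latter higher at 100 µM. Of the genes called higher, 812 of 1152 had no larger a CPM at 100 than at 80 µM, and of those called lower, 858 of 1311 had a larger CPM at 100 µM. Over all 11914 tested genes, 6006 had no larger a CPM at 100 µM and 5908 a larger one. So in most called genes the 80 µM library lay further in the direction of the call than the 100 µM library. In called genes whose levels overlapped DMSO, this order does not say which library lay nearer to DMSO. The median log2 ratio of 100 to 80 µM was -0.07 in genes called higher, 0.06 in genes called lower and 0.00 in all tested genes. ASNS, with 172 and 121 CPM at 80 and 100 µM, and TGM2, with 11.5 and 14.9 CPM, show the pattern in both directions.

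**Figure D5:**
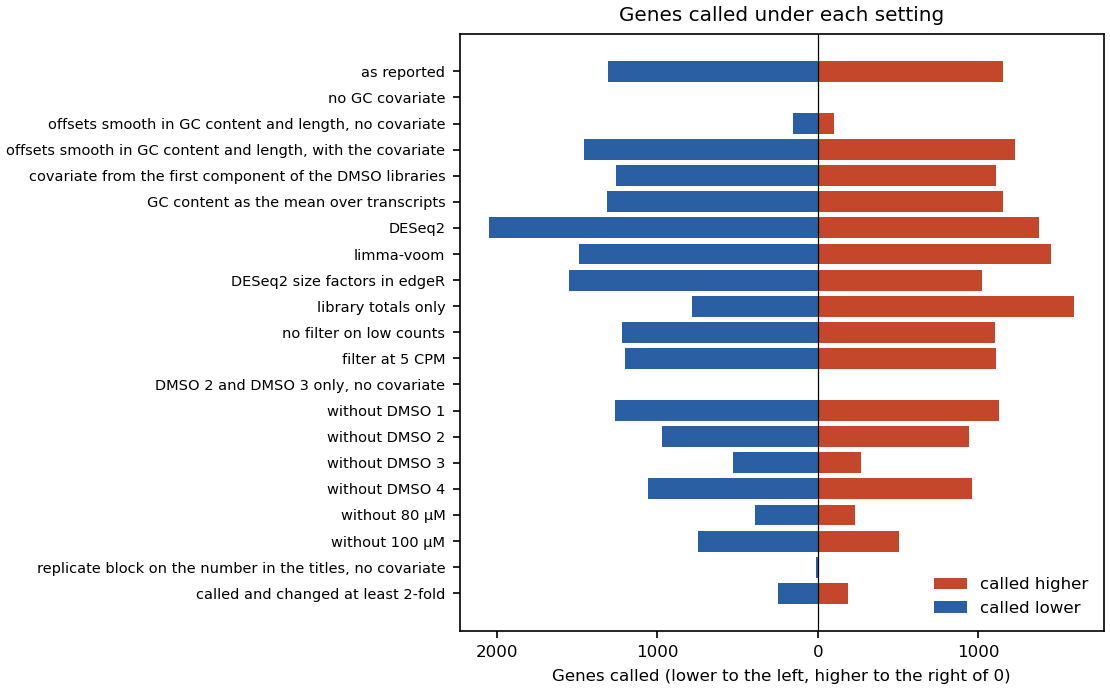
Number of genes called higher (red, to the right of 0) and lower (blue, to the left of 0) at an adjusted p under 0.05 in the comparison as reported and under each other setting. The comparison as reported calls 1152 and 1311 genes, none is called without the GC covariate, and fewest among the leave-outs (620) without the 80 µM library.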

How the data were processed

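RNA-seq gene levels of 6 libraries were analysed, grouped by the treatment labels. Per the file headers, the authors deposited read counts, TPM and FPKM per gene. Per the submitters' processing notes, tools included HISAT2, StringTie, FastQC and bedtools, with build GRCh38. Their versions, the gene annotation, strandedness and the handling of multiply mapped reads were not given in the sources used here. Only the counts were used, and gene positions are those of the table. Genes averaging 1 CPM or more (11914) entered edgeR's robust quasi-likelihood F test (edgeR 4.0.16, R 4.3.3, TMM scaling, 3 residual degrees of freedom). The GC slope of each library was a covariate, with Benjamini-Hochberg adjustment over all tested genes. The 80 and 100 µM libraries formed 1 group, so differences between them count as spread. GC content is that of a gene's longest GENCODE v29 transcript, known for 11910 tested genes. SE is the absolute log2 fold change over the square root of the F statistic.

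Named genes are the 12 highest and 12 lowest log2 fold changes among called genes with both lenvatinib libraries outside the DMSO range and 5 CPM or more on average in the higher group, up to 4 members of each list with the smallest p, and a set named in any case (KDR, FGFR1, FGFR3, FGFR4, DUSP6, DUSP4, EGFR, ATF4, DDIT3, CDKN1A, MKI67, HMGCS1, HNF4A, ALB and AFP). The comparison, lists and rules were chosen with earlier results of these data known, so they are not independent support. Some members that enter the counts are not reported here by name. Alternatives were DESeq2 1.42.0, limma-voom (limma 3.58.1), other scalings, filters and GC terms, a replicate block, and leaving out each library. The replicate block was read for the count of calls only, so the ranges over the alternatives leave it out.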

Additional observations from a re-analysis of the deposited data

Results flagged for a closer look

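In 3 of the 121 named genes that were tested, 1 DMSO library lay apart from the other DMSO libraries by Dixon's criterion for 4 samples, a wide gap relative to the whole range, and chance flags about 1 in 20 groups. RPL36A-HNRNPH2 was at 34.3 CPM in DMSO 3, against 2.17, 5.73 and 2.97 CPM in the other DMSO libraries. CENPE was at 26.4 CPM in DMSO 3, against 0.246, 4.06 and 0.735 CPM. SRXN1 was at 136 CPM in DMSO 1, against 119.9, 121.8 and 121.1 CPM, and both lenvatinib libraries were above all 4.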

How the results depend on the processing

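None of the 2463 calls of the GC-adjusted fit was made in the same direction against DMSO 2 and DMSO 3 alone without the covariate. There 1 gene was called, and 1176 had an unadjusted p under 0.05. The calls fell to 0 without the covariate, and to 251 (98 higher, 153 lower) with smooth offsets by GC content and length in its place. They were 620 to 2393 when each library was left out in turn, the lowest without the 80 µM library, and 432 with a fold change of at least 2. Leaving out the 80 or 100 µM library leaves 1 lenvatinib library, whose spread is then taken from the DMSO libraries. DESeq2 with the covariate called 3423, and the other settings called 2311 to 2937. The numbers in the titles are shared by DMSO 3 with 80 µM and DMSO 4 with 100 µM, whose deviations from their group means had correlations of -0.03 and -0.03. The GC trend was left in these deviations, and those of the 80 and 100 µM libraries mirror each other. The correlations therefore cannot tell whether the libraries were paired. With a replicate block on that number and no covariate, 16 genes were called on 1 residual degree of freedom. Of these 16 genes, 8 were among the 2463 in the same direction. Named genes were not read under the replicate block. Of the 110 called genes among the 121 named ones, 109 kept their sign under every other alternative run. The exception was FTL, at -0.12 without the covariate. Among genes that were not called, FGFR1 changed sign at -0.22 without the covariate, -0.30 with the offsets, -0.0466 with offsets and covariate, -0.0287 in DESeq2 and -0.0291 with DESeq2 size factors, and lay between -0.0711 and 0.0765 over the leave-outs. DDIT3 changed sign at 0.092 without the covariate and 0.19 with the offsets, and lay between -0.67 and 0.15 over the leave-outs. EGFR was at -0.14 against DMSO 2 and DMSO 3 alone. Over the leave-outs MT-ND4L lay between -0.34 and 0.0566 and CDKN1A between -1.63 and 0.37. The causes were not tested.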
